A study of Mus musculus with 75 samples.

Results

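The 10 genes described here are the cyclins Ccnd1, Ccnd2, Ccnd3, Ccne1, Ccne2, Ccna2, Ccnb1 and Ccnb2 and the cyclin-dependent kinases (CDKs) Cdk1 and Cdk2, out of 24984 genes counted in each RNA-seq library. They were listed by name, and the list was made with earlier results of these data known. All 10 passed the filter on low counts in each of the 5 RNA-seq experiments. The samples were cultured mouse skin fibroblasts. Cells of 2-month-old female mice gave 4 RNA-seq libraries at passage 1 (P1) and 4 each at P3, P5 and P7. ATAC-seq, which maps open chromatin by transposase insertion, was made at the same passages with 4, 3, 3 and 3 samples. The other libraries came from primary fibroblasts of newborn or 2-month-old mice, and the labels do not say which. The paper names the strain for the 2-month-old mice only. E2f4_OE cells (2 libraries) carried a doxycycline-inducible lentivirus with E2f4 and EGFP, and E2f4_OE_control cells (2 libraries) carried the EGFP vector. Both were transduced at pre-senescence, given in the paper as P4, and then treated with doxycycline. Knockdown cells carried a lentiviral short hairpin RNA and were selected with puromycin, as were their controls with a non-targeting hairpin (nt). They comprised E2f4_sh1 with E2f4_nt in proliferating P3 cells, Atf3_sh5, Atf3_sh6 and Atf3_nt in pre-senescent cells, and Tead1_sh3, Tead1_sh4 and Tead1_nt, with 3 libraries in each group. Where the paper describes the Tead1 knockdown, it names no passage or senescence state of the cells. The hairpins of each gene shared their control libraries.

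Cyclins are the activating partners of CDKs, and their levels set which kinase is active in each phase of the cell cycle. D cyclins, paired with Cdk4 or Cdk6, are induced by growth signals and begin the phosphorylation of the retinoblastoma protein in G1. E cyclins with Cdk2 act at the entry into S phase, Ccna2 with Cdk2 and Cdk1 through S phase and G2, and B cyclins with Cdk1 at mitosis. Ccne1 and Ccne2 are textbook targets of E2F factors, whereas the A and B cyclins and Cdk1 are held down in resting cells by the DREAM complex, which contains E2F4 with p130 or p107 and the MuvB core. In senescent fibroblasts the inhibitors p16 and p21 are known to keep CDKs inactive, and high levels of D cyclins have long been associated with this arrest.

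Promoter sequences are given for genes with and without the letters that DREAM and E2F factors are known to recognise. The windows were the 250 bases before the start site, from RefSeq on GRCm38.p6, for the 6 members matched in its promoter table (Ccnb1, Ccnb2, Ccnd3, Ccne1, Cdk1 and Cdk2). Ccna2, Ccnd1, Ccnd2 and Ccne2 were not matched. Both strands were searched for the cell cycle homology region (CHR) as TTTGAA and as TTCGAA, for the box CCAAT, for E2F letters as TTCCCGC, as TTCGCGC, as TTGCCGC and as TTGGCGC, and for AP-1 letters as TGAGTCA. Of 32807 windows of 26987 genes, 17.1% held CHR letters, 33.8% CCAAT, 7.89% E2F letters and 4.47% AP-1 letters. Cdk1 (chr10:69352913-69353162, minus strand) held 2 CHR, 3 CCAAT and 2 E2F matches. Ccnb2 (chr9:70421555-70421804, minus strand) held 1 CHR and 3 CCAAT matches. Ccnb1 (chr13:100786487-100786736, minus strand) held 2 CCAAT matches, of which 1 overlapped an E2F match, and Cdk2 (chr10:128705052-128705301, minus strand) held 1 CCAAT and 2 E2F matches. At Ccne1 (chr7:38107491-38107740, minus strand) no match was found. Other spellings and bases after the start site were not searched, so a window without a match may still belong to a gene with a site. Of the 2 start sites of Ccnd3, the downstream site (chr17:47593217-47593466, plus strand) held 1 CCAAT match and the upstream site none. AP-1 letters were found in none of these windows. Matches are in capitals, read 5′ to 3′ on the strand of the gene.
Cdk1: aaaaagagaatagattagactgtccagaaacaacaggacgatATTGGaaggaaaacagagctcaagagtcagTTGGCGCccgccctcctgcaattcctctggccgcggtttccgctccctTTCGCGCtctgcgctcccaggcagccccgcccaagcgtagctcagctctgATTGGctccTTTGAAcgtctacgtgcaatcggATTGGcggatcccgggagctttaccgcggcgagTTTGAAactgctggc
Ccnb2: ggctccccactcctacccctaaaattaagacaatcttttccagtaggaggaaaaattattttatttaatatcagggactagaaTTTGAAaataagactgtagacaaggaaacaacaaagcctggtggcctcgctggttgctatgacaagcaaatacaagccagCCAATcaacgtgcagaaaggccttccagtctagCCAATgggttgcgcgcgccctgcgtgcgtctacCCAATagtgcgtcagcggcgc
Ccnb1: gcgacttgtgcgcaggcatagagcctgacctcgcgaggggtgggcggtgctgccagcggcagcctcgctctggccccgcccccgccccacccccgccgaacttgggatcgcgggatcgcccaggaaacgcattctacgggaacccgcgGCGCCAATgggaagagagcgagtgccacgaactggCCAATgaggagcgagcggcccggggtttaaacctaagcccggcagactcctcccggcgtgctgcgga
Cdk2: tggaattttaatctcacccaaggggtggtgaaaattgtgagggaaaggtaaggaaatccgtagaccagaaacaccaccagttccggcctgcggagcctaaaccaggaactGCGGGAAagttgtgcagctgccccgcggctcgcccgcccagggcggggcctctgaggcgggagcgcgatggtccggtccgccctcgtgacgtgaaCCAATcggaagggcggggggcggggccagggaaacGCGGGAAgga
Ccnd3: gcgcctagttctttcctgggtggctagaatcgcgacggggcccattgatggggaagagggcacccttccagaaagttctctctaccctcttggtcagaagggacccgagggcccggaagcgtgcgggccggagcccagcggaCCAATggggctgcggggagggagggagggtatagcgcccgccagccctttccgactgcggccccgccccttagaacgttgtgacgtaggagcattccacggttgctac
Ccne1: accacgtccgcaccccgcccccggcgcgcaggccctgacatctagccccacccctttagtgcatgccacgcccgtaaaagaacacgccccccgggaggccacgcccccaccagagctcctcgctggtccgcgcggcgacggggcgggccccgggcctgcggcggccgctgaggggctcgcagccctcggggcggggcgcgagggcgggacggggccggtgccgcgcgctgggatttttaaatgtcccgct

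On GRCm38 the D cyclins lie at chr7:144929931-144939831 (Ccnd1), chr6:127125162-127152188 (Ccnd2) and chr17:47505051-47599689 (Ccnd3), and the E cyclins at chr7:38097984-38107490 (Ccne1) and chr4:11190433-11204779 (Ccne2). The A and B cyclins lie at chr3:36564865-36573038 (Ccna2), chr13:100778739-100786486 (Ccnb1) and chr9:70407689-70421554 (Ccnb2), and the kinases at chr10:69335146-69352912 (Cdk1) and chr10:128697938-128705051 (Cdk2). Exons of Ccna2, Ccnd1, Ccnd3 and Ccne2 overlap a gene on the opposite strand (Exosc9, LTO1, Bysl and Ints8). The counts ignored strand, so reads in the exon parts that these 4 genes share with their partners could not be told apart, and their values are uncertain to that extent.

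Total counts lay between 9147324 and 27552949 per library. Nothing in the labels says that replicates were separate cultures or animals, so the p-values measure only the spread between these samples. In the bulk libraries, fewer cells that express a gene and less RNA per cell cannot be told apart. All 8 fibroblast markers were detected in every group, with summed levels between 13600 and 37400 CPM (counts scaled to a common library size). Summed levels at P1 were higher than at later passages for markers of macrophages (298 to 458 CPM against 19.2 to 59), keratinocytes (59.3 to 375 against 1.71 to 8.23), endothelium (177 to 190 against 10.8 to 50.2) and skeletal muscle (127 to 197 against 29.4 to 109). Their part in the comparisons with P1 was not tested, and P7 was therefore also compared with P3. Markers also differed between P3 and P7. Endothelial markers summed to 44.3 to 50.2 CPM at P3 and 10.8 to 13.9 at P7, and all 8 were lower (edgeR, adjusted p under 0.05). Of 7 skeletal muscle markers tested, 6 were lower and 1 higher, and of 8 macrophage markers 5 and 1. Of 7 keratinocyte markers tested, none was lower and 1 was higher. Of all genes, 26.5% were lower and 24.8% higher. The part of the markers in this comparison was not tested either. Atf3_sh5 replicate 3 stood apart from the other libraries of its group, at 59.4 and 63.7 chi-square units per degree of freedom from them, whereas they were 3.29 from each other. The members' results with the Atf3 hairpins are given with and without it. Those on Atf3 itself, the markers and the CDK inhibitors include it.

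Over the passages the D cyclins moved against the E, A and B cyclins and both kinases. From P1 to P7 all 3 D cyclins rose, by 2.01-fold (Ccnd1), 4.68-fold (Ccnd2) and 1.53-fold (Ccnd3), while all 5 E, A and B cyclins and both kinases fell, from 1.39-fold for Ccne1 to 9.54-fold for Ccna2 (n = 4 at each passage). Among all 13442 genes tested in this comparison, 30.5% were higher and 31.9% lower at P7, by edgeR's quasi-likelihood test with an adjusted p under 0.05. The median log2 fold change was +1.01 over the D cyclins, -2.16 over the E, A and B cyclins and -0.01 over all genes. With a fold over 2 also required, 2 members were higher (Ccnd1 and Ccnd2) and 6 lower (all but Ccne1), beside 8.1% higher and 13.3% lower of all genes.

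**Figure D1:**
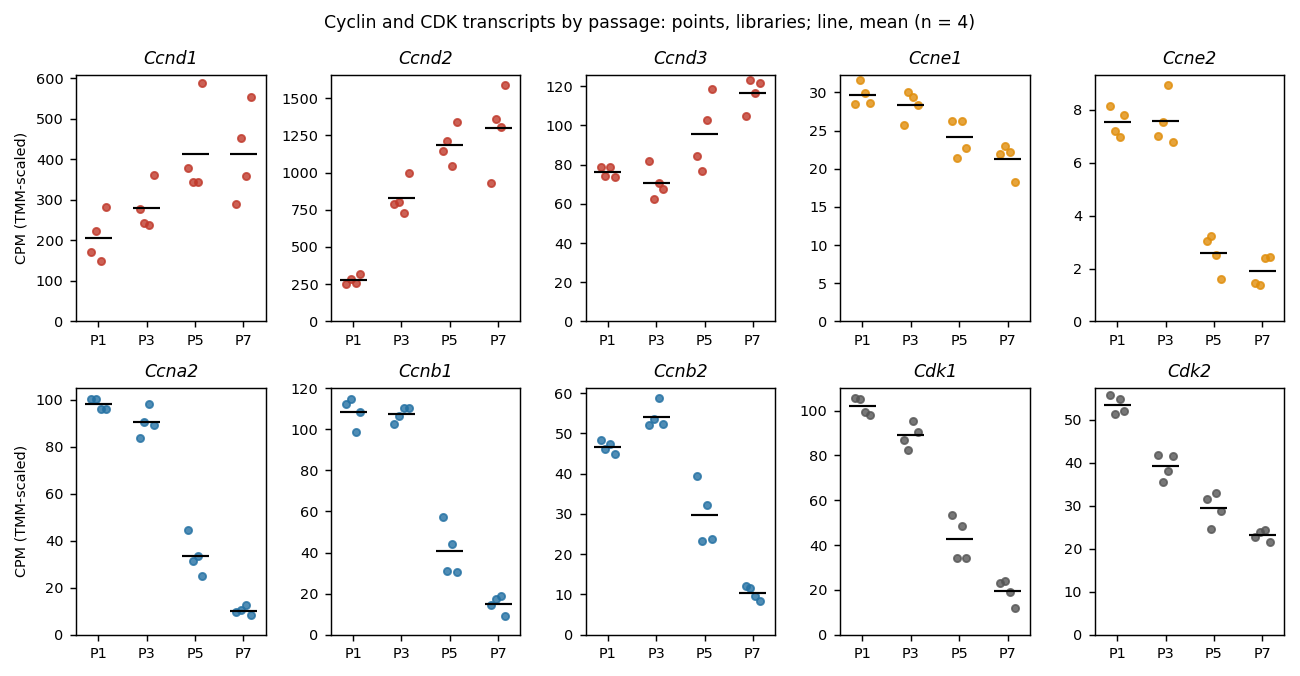
TMM-scaled CPM (y axis, linear from 0) of the 10 genes at each passage (x axis), with 1 point per library and a line at the mean of 4 libraries. Ccnd2 was already 725 to 998 CPM at P3 against 250.5 to 320 at P1, whereas Ccna2 stayed at 83.9 to 98.3 CPM at P3 and lay at 8.31 to 12.6 at P7.

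Ccnd1, the D cyclin best known as a sensor of mitogens, had 171, 223, 148 and 283 CPM at P1, 277, 243, 238 and 361 at P3, 379, 344, 345 and 587 at P5, then 291, 454, 358 and 554 at P7. All P7 libraries lay above all P1 libraries, although the spread within each passage was wide. Its log2 fold change from P1 to P7 was 1.01 ± 0.23 (SE; edgeR, adjusted p = 0.000896). The rise from P3 to P7 was 0.57 ± 0.23 with an adjusted p of 0.0432, the groups overlapped, and the call was lost with DESeq2 (adjusted p = 0.0725), without a filter on low counts (adjusted p = 0.122) and without P1 replicate 2, P3 replicate 1, 2 or 3, P5 replicate 2 or 3, or P7 replicate 2 or 4 (adjusted p between 0.0514 and 0.159). No step between neighbouring passages passed for Ccnd1 with all passages and no replicate block in the fit, but that from P3 to P5 passed with only these passages in it (0.56, adjusted p = 0.0365). With the replicate number as a block, the steps from P1 to P3 and from P3 to P5 passed (edgeR, adjusted p = 0.00486 and 0.00236), although that number paired the libraries only in part.

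Ccnd2, which pairs with Cdk4 and Cdk6 as Ccnd1 does, had 250.5, 282, 255 and 320 CPM at P1 and 789, 802, 725 and 998 at P3. It reached 1145, 1211, 1041 and 1336 CPM at P5 and 930, 1360, 1309 and 1591 at P7. The P1 libraries lay far below all others. Most of the rise came between P1 and P3 (log2 fold change 1.58 ± 0.14, SE; edgeR, adjusted p = 4.99e-08), followed by 0.51 ± 0.14 from P3 to P5 (adjusted p = 0.00846), while P7 and P5 differed by 0.13 ± 0.14 (adjusted p = 0.549).

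Ccnd3, the third D cyclin, had 78.8, 74.4, 78.5 and 73.5 CPM at P1, 82.1, 62.5, 70.6 and 67.6 at P3, 84.3, 76.7, 103 and 118 at P5, then 105, 123, 117 and 122 at P7. P1 and P3 overlapped, and all P7 libraries lay above both. The rise was 0.43 ± 0.11 on the log2 scale from P3 to P5 (edgeR, adjusted p = 0.00833) and 0.72 ± 0.11 from P3 to P7 (adjusted p = 3.46e-05).

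The E cyclin Ccne1 had the smallest change of the 10 genes from P1 to P7. Its levels were 28.4, 31.7, 29.9 and 28.7 CPM at P1, 25.8, 30.0, 29.3 and 28.4 at P3, 26.2, 21.4, 26.2 and 22.7 at P5, then 21.9, 23.0, 22.1 and 18.3 at P7. P7 lay below P1 and P3 without overlap, by 0.48 ± 0.10 on the log2 scale against P1 (edgeR, adjusted p = 0.000325), and no step between neighbouring passages passed. Ccne2, which shares the kinase partner of Ccne1, had 8.15, 7.20, 6.97 and 7.80 CPM at P1, 7.03, 7.55, 8.96 and 6.80 at P3, 3.04, 3.25, 2.52 and 1.59 at P5, then 1.45, 1.39, 2.38 and 2.45 at P7. It fell between P3 and P5 (log2 fold change -1.55 ± 0.21, adjusted p = 2.94e-05), and its P7 values rest on 18 to 33 counts per library.

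Ccna2, the cyclin of S phase and G2, had 100.5, 100.2, 96.2 and 96.1 CPM at P1, 83.9, 90.5, 98.3 and 89.1 at P3, 44.5, 31.5, 33.5 and 24.8 at P5, then 9.85, 10.4, 12.6 and 8.31 at P7. P1 and P3 overlapped, and P5 and P7 each lay below the passage before. It fell by 1.43 ± 0.13 on the log2 scale from P3 to P5 (edgeR, adjusted p = 7.48e-07) and by 1.71 ± 0.15 from P5 to P7 (adjusted p = 4.21e-07). This was the largest fall of the 10 genes from P1 to P7 (9.54-fold, adjusted p = 8.16e-13).

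For both mitotic B cyclins all P7 libraries lay below all P5 libraries, and these below those of P1 and P3. Ccnb1 had 112, 115, 98.6 and 108 CPM at P1, 103, 106, 110.5 and 110.4 at P3, 57.2, 31.3, 44.1 and 30.7 at P5, then 14.4, 17.4, 19.0 and 9.06 at P7. Ccnb2 had 48.4, 46.0, 47.3 and 44.9 CPM at P1, 52.1, 53.6, 58.8 and 52.4 at P3, 39.5, 23.3, 32.1 and 23.8 at P5, then 12.1, 11.7, 9.61 and 8.31 at P7. All P3 libraries of Ccnb2 lay above those of P1, but this difference did not pass (log2 fold change 0.22 ± 0.14, edgeR, adjusted p = 0.229). From P1 to P7 the falls were 7.26-fold for Ccnb1 (adjusted p = 4.76e-10) and 4.47-fold for Ccnb2 (adjusted p = 2.17e-10).

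Cdk1, the kinase of mitosis, had 105.5, 105, 99.6 and 97.8 CPM at P1, 87.0, 82.6, 95.5 and 90.6 at P3, 53.3, 34.4, 48.7 and 34.3 at P5, then 23.1, 24.2, 18.9 and 12.1 at P7. Cdk2, the partner of the E and A cyclins, had 55.7, 51.3, 54.7 and 52.0 CPM at P1, 41.9, 35.5, 38.1 and 41.6 at P3, 31.7, 24.6, 33.0 and 28.8 at P5, then 22.8, 23.8, 24.3 and 21.5 at P7. No library of Cdk2 overlapped with those of the passage before. Cdk2 thus fell at every step, by 0.44, 0.41 and 0.36 on the log2 scale (edgeR, adjusted p = 0.00103, 0.00334 and 0.0151), and Cdk1 at the later 2 steps by 1.06 and 1.13 (adjusted p = 0.000109 and 0.000107). Cdk1 fell 5.22-fold from P1 to P7 and Cdk2 2.31-fold. The call of Cdk2 between P5 and P7 was lost with only these passages in the fit (adjusted p = 0.0957) and without P5 replicate 1 (adjusted p = 0.0516) or replicate 3 (adjusted p = 0.0566).

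Step by step, 1 member was higher (Ccnd2) and 1 lower (Cdk2) at P3 than at P1, beside 15.9% higher and 17.5% lower of all genes tested. From P3 to P5, 2 were higher (Ccnd2 and Ccnd3) and 6 lower (Ccna2, Ccnb1, Ccnb2, Ccne2, Cdk1 and Cdk2), against 13.4% and 15.4% of all genes. From P5 to P7 none was higher and 5 were lower (Ccna2, Ccnb1, Ccnb2, Cdk1 and Cdk2), against 7.64% and 9.13%. Between P3 and P7, a comparison without the level of P1, 3 were higher and 7 lower, against 24.8% and 26.5%.

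Per kb of exon, levels could be compared between the cyclins. At P1, Ccnd1 (54.7 ± 15.9 CPM per kb, SD, n = 4), Ccnd2 (48.0 ± 5.54) and Ccnb1 (46.8 ± 3.06) were highest and did not differ beyond their spread. Below them came Ccnd3 (33.7 ± 1.24), then Ccnb2 (30.3 ± 0.99) and Ccna2 (29.1 ± 0.72), then Cdk1 (23.5 ± 0.92) and Cdk2 (22.0 ± 0.86), and last Ccne1 (15.2 ± 0.76) and Ccne2 (2.34 ± 0.17). The libraries of Ccnb2 and Ccna2 overlapped, as did those of Cdk1 and Cdk2, and no other neighbours below Ccnb1 did. At P7 the order was led by Ccnd2 (225 ± 47.5), Ccnd1 (110 ± 30.5) and Ccnd3 (51.5 ± 3.67). Then followed Ccne1 (10.9 ± 1.07) and Cdk2 (9.49 ± 0.52), then Ccnb2 (6.77 ± 1.16), Ccnb1 (6.46 ± 1.89), Cdk1 (4.50 ± 1.26), Ccna2 (3.05 ± 0.53) and last Ccne2 (0.60 ± 0.18). Here Ccne1 and Cdk2 overlapped, as did neighbours from Ccnb2 to Ccna2, and the others did not.

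Of the summed level of the 8 cyclins (CPM per kb), D cyclins made up 52.2% ± 3.64 at P1 (SD, n = 4), 66.3% ± 3.5 at P3, 85.4% ± 3.96 at P5, then 93.0% ± 1.95 at P7. A and B cyclins went from 41.0% ± 3.17 to 29.1% ± 3.01, 11.4% ± 3.49 and 4.10% ± 1.28, and E cyclins from 6.76% ± 0.56 to 2.88% ± 0.70. The D share of the lowest library at each later passage was above that of the highest library at the passage before. On the log2 scale, the mean of the D cyclins exceeded that of the E, A and B cyclins by 1.98 ± 0.18 at P1, 2.62 ± 0.23 at P3, 4.23 ± 0.50 at P5, then 5.41 ± 0.38 at P7. In the controls of the other experiments the D share was 81.1% to 85.2%, between the means of P3 and P5. This was above every P3 library of the passages (62.4% to 70.5%), also for E2f4_nt of proliferating P3 cells (81.1%).

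**Figure D2:**
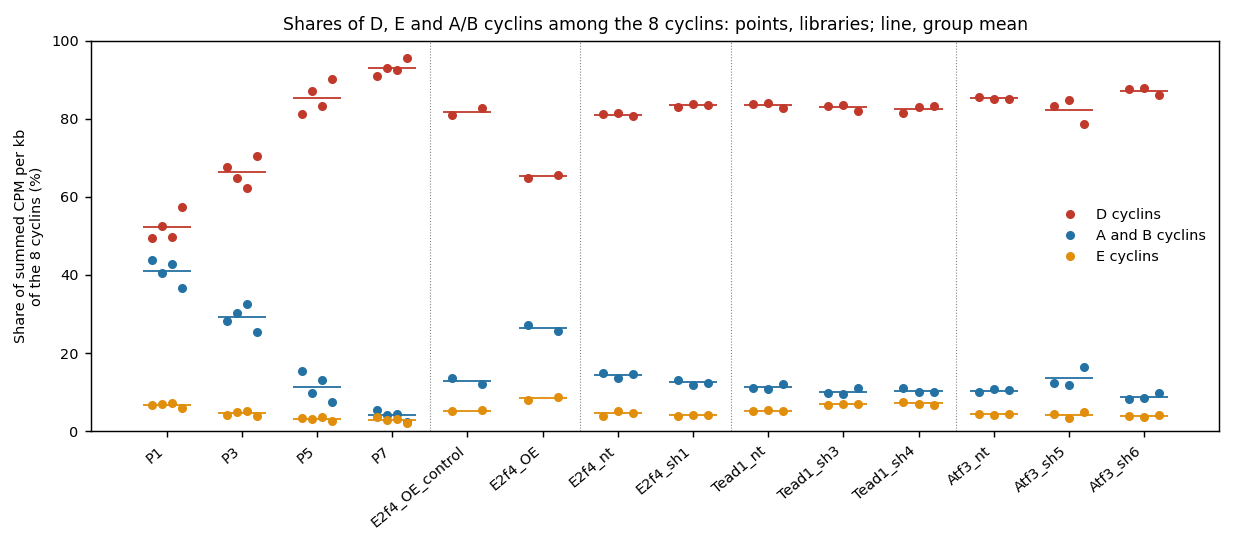
Percent of the summed CPM per kb of the 8 cyclins (y axis) taken by D, A and B, and E cyclins in each group (x axis), with 1 point per library and a line at the group mean. The D share is 52.2% at P1 and 93.0% at P7, and of the interventions E2f4_OE is lowest, at 65.2% against 81.8% in its control.

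The genes that restrain and activate CDKs were read from lists written with earlier results of these data known. Of 7 CDK inhibitors, 3 were higher and 3 lower at P7 than at P1, and the shares of all genes, 30.5% higher and 31.9% lower, stand beside this and the following lists. Cdkn2a, which encodes p16 and ARF, rose by 4.79 on the log2 scale, Cdkn2b (p15) by 1.89 and Cdkn1a (p21) by 1.53, whereas Cdkn2c (p18) fell by 1.42. Of the G1 kinases that pair with D cyclins, Cdk6 rose by 0.84 and Cdk4 fell by 0.49. All these passed edgeR's test with an adjusted p under 0.05.

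Of 12 genes that activate or brake CDKs, 2 were higher and 9 lower at P7 than at P1, among them the inhibitory kinase Pkmyt1 (log2 fold change -2.92), the mitotic kinase Plk1 (-2.68) and the activating phosphatases Cdc25c (-2.57) and Cdc25b (-2.49). Of 12 genes of cyclin degradation, none was higher and 8 were lower, led by the anaphase-promoting complex inhibitor Fbxo5 (-3.31), the F-box cyclin Ccnf (-2.77), the ubiquitin-conjugating enzyme Ube2c (-2.46) and the complex's activator Cdc20 (-2.20). Of 16 E2F, pocket protein and MuvB genes, 1 was higher and 11 were lower, led by Mybl2 (-3.47), E2f8 (-3.43), E2f7 (-3.23) and Foxm1 (-3.0). The medians of these lists were -1.44, -0.50 and -1.10, beside -0.01 over all genes.

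Of 12 transcriptional cyclins and kinases, which act with RNA polymerase II or in splicing, none was higher and 8 were lower at P7 than at P1, with smaller changes (Ccnl1, -0.77 on the log2 scale, Ccnl2, -0.63, Ccnt2, -0.56, and Ccnc, -0.52). Of 11 atypical cyclins and kinases tested from a list of 12, 8 were higher and 1 was lower. The highest were the p53 target Ccng1 (1.49), Cdk18 (1.2), the quiescence-linked Ccng2 (1.19) and Cdk5 (0.65). Of 9 known inducers of D cyclins or their companions, 5 were higher (among them Ccn2, 1.83, Egr1, 1.27, and Fos, 0.99) and 1 was lower (Myc, -0.46).

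Genes with the course most like that of a member were found by the root mean square difference of log2 CPM, relative to the mean of P1, over the 12 libraries of P3, P5 and P7. Those nearest to Ccna2 were Top2a (0.10), Kif4 (0.19) and Kif14 (0.20), and those nearest to Ccnb1 were Kntc1 (0.17), Kif4 (0.19) and Bub1b (0.19). Nearest to Ccne1 were Heatr3 (0.09), Trp53 (0.10) and Pwp1 (0.10). For Ccnd1 the nearest genes were Inka2 (0.18), Ikbkg (0.19) and Gm2115 (0.19).

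Promoter accessibility was read from the strongest ATAC-seq peak within 1000 bases of a start site, as its percentile among all peaks of the sample by -log10 p, since peak values of different samples are not on 1 scale. All 10 genes had such a peak in all 13 samples, and the lists held 142384 to 231558 peaks, with 168982 to 186562 at P1 and 200376 to 231558 at P7. A longer list raises the percentile of a peak when the added peaks are weaker, so the comparison was also made with the 142384 strongest peaks of every sample, an alternative chosen after the data were seen. Ccnd1 was at 40.3, 51.6, 55.5 and 53.1 at P1, 51.3, 35.1 and 59.2 at P3, 71.9, 69.2 and 62.1 at P5, then 73.1, 78.9 and 81.6 at P7. All P5 and P7 samples lay above all P1 and P3 samples. The mean went from 50.1 ± 6.74 (SD, n = 4) to 77.8 ± 4.35 (n = 3), a difference of 27.7 points (two-sided exact permutation test, p = 0.0286, the smallest that 35 splits can give, and 0.119 after adjustment over genes). In lists of equal length Ccnd1 was at 38.4 ± 8.39 and 66.4 ± 4.67, again without overlap, and the bases covered by peaks in its window were 307.8 ± 27.1 at P1 and 367.3 ± 18.5 at P7.

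Ccnd2 also lay higher, with 84.7, 85.5, 85.3 and 86.4 at P1 against 88.3, 92.8 and 91.7 at P7, a difference of 5.48 points, but P1 and P7 overlapped in lists of equal length (82.0 ± 1.47 and 86.3 ± 2.47). The bases covered by peaks in its window went the other way, from 1160 ± 76.5 to 580 ± 184, and 9 of the 10 members had fewer covered bases on average at P7 than at P1. Covered bases were not counted over all genes, so whether this is particular to the members is unknown. Below P1 at P7 were Ccne2 (93.0 ± 1.18 to 87.9 ± 1.94), Cdk2 (95.1 ± 1.31 to 90.3 ± 0.85) and Ccnb1 (97.9 ± 0.57 to 96.6 ± 0.24). The samples of Ccna2, Ccnb2, Ccnd3, Ccne1 and Cdk1 overlapped, with means between 90.3 and 99.1 at both passages. Thus 2 members lay above and 3 below without overlap, beside 13.5% above and 29.5% below of 18416 genes with a promoter peak. In lists of equal length 1 lay above (Ccnd1) and 4 below (Ccnb1, Ccne1, Ccne2 and Cdk2), beside 7.36% above and 44.5% below of 17226 genes. With these sample numbers no gene passed after adjustment, and at an unadjusted p under 0.05 the exact permutation test called 4 members and 33.8% of all genes.

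The peak of Ccna2 was at 99.08 ± 0.32 at P1 and 98.98 ± 0.13 at P7, near the end of the scale, where a change in accessibility could hardly show. Its covered bases were 654.2 ± 45.5 and 539.3 ± 79.1. Cdk1 stood at 90.3 ± 3.01 and 94.0 ± 1.41, with 1261 ± 150 and 928.7 ± 159 covered bases. By fold enrichment in place of -log10 p, Ccnb2 lay below P1 (difference of the means -2.51 points), as did Ccne1 (-5.56 points), and Ccnb1 and Ccne2 overlapped.

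**Figure D3:**
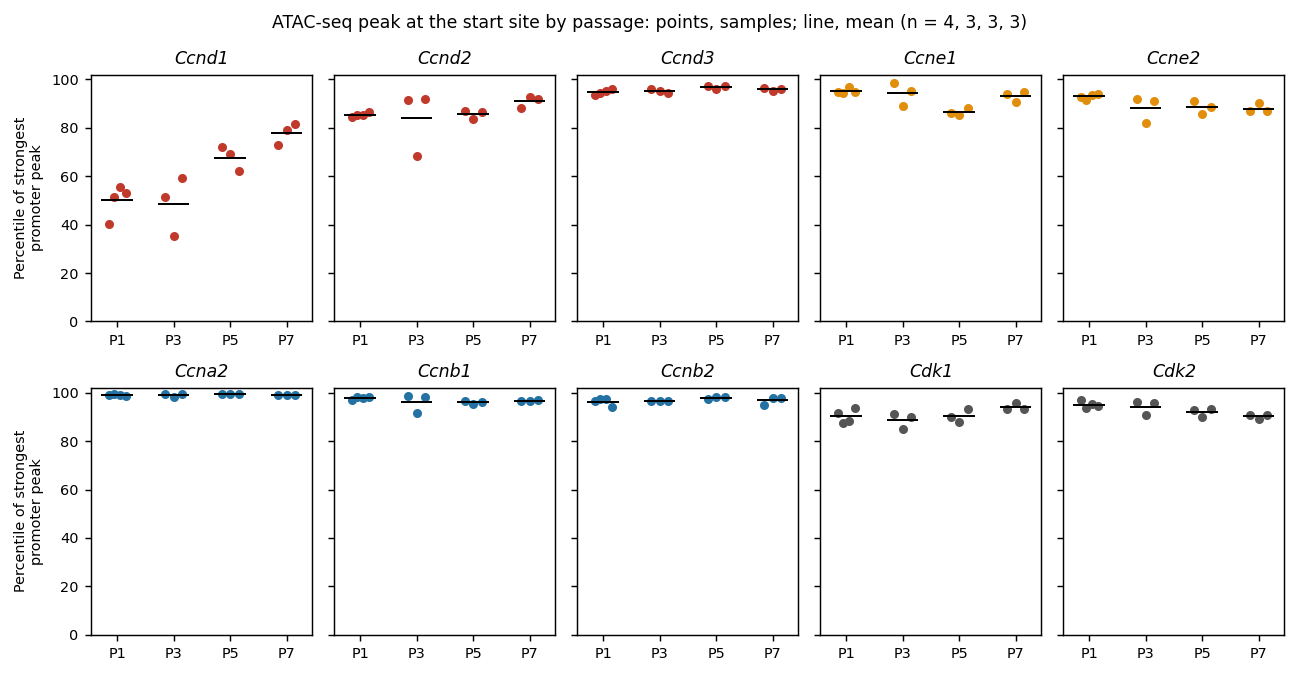
Percentile of the strongest ATAC-seq peak at the start site among all peaks of its sample (y axis, 0 to 100) by passage (x axis) for the 10 genes, with 1 point per sample and a line at the mean. Ccnd1 lies at 40.3 to 55.5 at P1 and at 73.1 to 81.6 at P7, whereas Ccna2 lies near the upper end of the scale at every passage.

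E2f4 overexpression tested whether the factor changes the members in pre-senescent cells. E2f4 itself had 35.5 and 47.5 CPM in the control libraries and 1118 and 1180 in E2f4_OE. In these cells 7 members rose and 2 fell, beside 28.9% higher and 28.3% lower of all genes tested. Cdk1 rose from 66.4 and 68.8 CPM to 136 and 140 (log2 fold change 1.03 ± 0.11, SE, edgeR, adjusted p = 3.18e-05). Ccna2 went from 70.3 and 54.2 to 106 and 97.9 CPM, Ccnb1 from 68.9 and 61.0 to 115 and 110.0, and Ccnb2 from 24.1 and 23.9 to 37.1 and 36.8. Both overexpression libraries lay above both controls for each. The log2 fold changes were 0.71 (adjusted p = 0.00123), 0.79 (adjusted p = 0.000202) and 0.62 (adjusted p = 0.00131).

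The D cyclins parted from each other in E2f4_OE. Ccnd2 fell from 1685 and 1626 CPM to 843 and 813 (log2 fold change -1.0 ± 0.09, edgeR, adjusted p = 1.68e-05), and Ccnd1 from 255 and 288 to 201 and 216 (-0.38 ± 0.11, adjusted p = 0.0114). Ccnd3 rose from 70.6 and 88.6 CPM to 118 and 132 (0.65 ± 0.13, adjusted p = 0.00164). Cdk2 rose from 35.5 and 34.8 to 56.2 and 55.6 CPM (0.67 ± 0.11, adjusted p = 0.000546), and Ccne1 from 43.9 and 43.0 to 54.2 and 62.0 (0.42 ± 0.12, adjusted p = 0.0112). Ccne2 overlapped, at 9.34 and 11.2 against 10.4 and 8.36 CPM (adjusted p = 0.563).

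The share of D cyclins in the summed CPM per kb was 81.8% ± 1.2 (SD, n = 2) in the control and 65.2% ± 0.50 in E2f4_OE. Of the lists, to be read beside 28.9% higher and 28.3% lower of all genes, 7 of 12 genes of CDK activation and braking were higher and 3 lower, led by Plk1 (1.66 on the log2 scale), Cdc25b (1.34) and Pkmyt1 (1.32). Of 12 degradation genes 8 were higher and 1 lower, led by Cdc20 (1.46) and Ube2c (1.18). Of the 16 E2F, pocket protein and MuvB genes 9 were higher, E2f4 included, and 3 lower, with Mybl2 at 1.37, E2f7 at 1.32 and E2f8 at 1.24. Cdk4, the kinase partner of D cyclins, rose by 1.21. Of the inhibitors 4 were higher (Cdkn2c, 1.46, and Cdkn2d, 1.28, among them) and 2 lower (Cdkn2a, -0.83, and Cdkn2b, -0.72).

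Other differences between the E2f4_OE and control libraries stood beside these results. Ddx3y, a Y-linked gene, had 36.7 and 36.5 CPM in the control and 9.96 and 7.36 in E2f4_OE, and Xist had 1399 and 1155 against 686 and 559. Reads outside genes made up 11.5% and 10.8% of the reads listed in the control and 6.01% and 5.64% in E2f4_OE. Skeletal muscle markers summed to 66.5 to 76.4 CPM in the control and 22.3 to 23.8 in E2f4_OE, with 5 of 8 markers (Myod1, Myog, Myh3, Myh8 and Ckm) at 0 in both. The labels give no sex for these cells, and the part of these differences in the members' changes was not tested. Without E2f4_OE replicate 1 the call of Ccnd1 was lost (-0.33, edgeR, adjusted p = 0.118), and without replicate 2 that of Ccne1 (0.33, adjusted p = 0.156).

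Knockdown of E2f4 in proliferating P3 cells lowered E2f4 from 59.6, 60.8 and 59.6 CPM to 21.6, 20.4 and 21.8. None of the members was higher and 4 were lower, beside 9.89% higher and 8.29% lower of all genes. Ccna2 went from 52.9, 52.6 and 58.3 CPM to 44.4, 42.8 and 36.4, and Ccnb1 from 64.9, 59.7 and 68.6 to 54.2, 47.6 and 45.5. The control and knockdown libraries did not overlap for either. The log2 fold changes were -0.40 ± 0.10 (SE; edgeR, adjusted p = 0.00513) and -0.39 ± 0.09 (adjusted p = 0.00478).

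Cdk1 went from 70.9, 65.6 and 63.1 CPM to 55.3, 58.2 and 50.6 with the E2f4 hairpin (log2 fold change -0.28, edgeR, adjusted p = 0.026), and Ccnd2 from 1153, 1164 and 1222 to 1089, 1030 and 974 (-0.20, adjusted p = 0.0253). Both lay below the controls without overlap. Of the 16 E2F, pocket protein and MuvB genes, none was higher and 6 were lower, E2f4 included, with Mybl2 at -0.65, E2f8 at -0.60 and Foxm1 at -0.48. Ccnb2 (-0.25), Ccnd1 (-0.05), Ccnd3 (0.06), Ccne1 (-0.29), Ccne2 (-0.41) and Cdk2 (-0.19) did not pass. The calls of Ccnd2 and Cdk1 were lost without any 1 of the 3 control libraries (adjusted p between 0.052 and 0.167), that of Ccnd2 also without E2f4_sh1 replicate 2 (adjusted p = 0.0781), that of Ccna2 without control replicate 3 (adjusted p = 0.0501), and that of Cdk1 with DESeq2 (adjusted p = 0.0517). Summed fibroblast markers were 23800 to 26200 CPM against 30900 to 31900 in the controls, skeletal muscle markers 111 to 136 against 73.4 to 76.2 and macrophage markers 14.2 to 20.7 against 5.7 to 10.5. Singly, 2 of the 8 fibroblast markers were higher and 3 lower, 1 of 2 skeletal muscle markers tested was higher, and 2 of 3 macrophage markers tested were higher. The part of these differences was not tested. Thus Ccna2, Ccnb1 and Cdk1 passed in both E2f4 experiments with opposite directions, and Ccnd2 was lower in both.

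**Figure D4:**
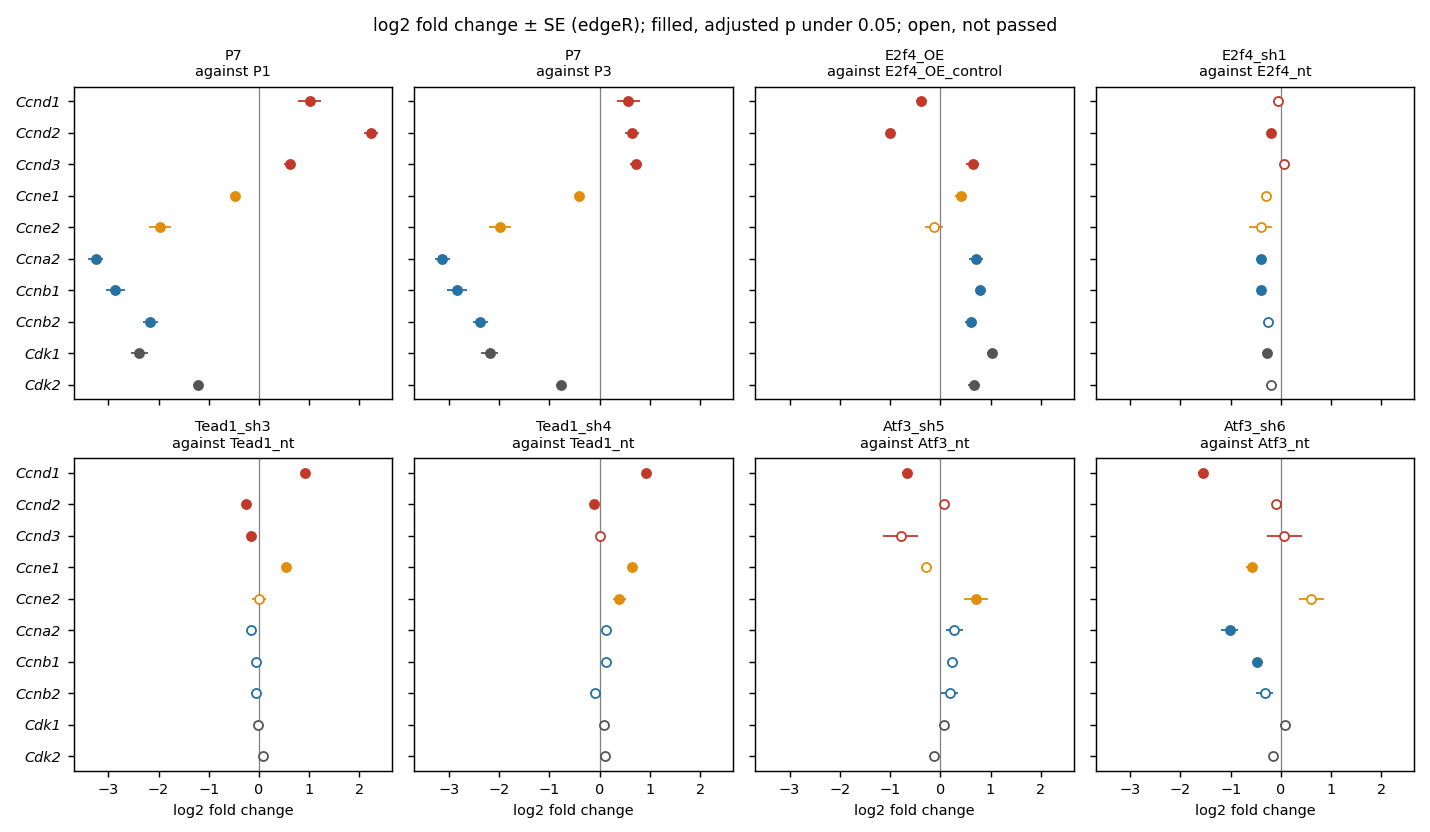
Log2 fold change ± SE (x axis, edgeR) of the 10 genes (y axis) in 8 comparisons, filled where the adjusted p was under 0.05. From P1 to P7 the 3 D cyclins lie right of 0 and the other 7 genes left of it, a split that no intervention repeats.

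Tead1 knockdown was made with 2 hairpins, whose targets overlap in the study's table of hairpins, so they are not independent in sequence. Tead1 had 572, 508 and 545 CPM in the controls, 268, 284 and 285 with sh3 and 315, 313 and 320 with sh4. Ccnd1 was the member that moved most. It had 268, 266 and 271 CPM in the controls, 500.2, 538 and 492 with sh3 and 505, 504 and 528 with sh4. Every knockdown library lay above every control library. The log2 fold changes were 0.93 ± 0.04 for sh3 (edgeR, adjusted p = 1.51e-21) and 0.93 ± 0.04 for sh4 (adjusted p = 2.29e-21), and Ccnd1 ranked 4 and 2 by p among 13012 genes.

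Ccne1 rose with Ccnd1, from 40.6, 40.7 and 40.8 CPM to 57.3, 60.8 and 58.0 with sh3 and 68.5, 60.4 and 61.5 with sh4 (log2 fold changes 0.53 and 0.64, edgeR, adjusted p = 2.09e-09 and 2.14e-11). Ccnd2 fell, from 1383, 1341 and 1341 to 1147, 1144 and 1083 CPM with sh3 (-0.27, adjusted p = 8.64e-08) and 1221, 1220 and 1295 with sh4 (-0.12, adjusted p = 0.0085). Ccnd3 fell with sh3, from 129.5, 130.3 and 128 to 116, 113 and 116 CPM (-0.17, adjusted p = 0.0017), but stood at 129.7, 128 and 129 with sh4 (adjusted p = 0.984). Ccne2 rose with sh4, from 6.65, 6.41 and 6.77 to 8.25, 9.14 and 8.57 CPM (0.39, adjusted p = 0.022), a call lost with DESeq2 (adjusted p = 0.0566) and without Tead1_nt replicate 2 or Tead1_sh4 replicate 2.

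Ccna2, Ccnb1, Ccnb2, Cdk1 and Cdk2 passed with neither hairpin (log2 fold changes between -0.16 and 0.13). In all, 2 members were higher and 2 lower with sh3, beside 17.7% and 17.8% of all genes, and 3 were higher and 1 lower with sh4, beside 14.5% and 14.8%. Between the hairpins, Ccna2 (0.28), Ccnd2 (0.15) and Ccnd3 (0.17) were higher with sh4 than with sh3 and none was lower, beside 3.66% and 4.23% of all genes. The call of Ccnd2 between the hairpins was lost without Tead1_sh3 replicate 3 or Tead1_sh4 replicate 3, and that of Ccnd3 without Tead1_sh3 replicate 2 (edgeR, adjusted p between 0.0568 and 0.072). Of the 7 CDK inhibitors, 1 was higher and 3 lower with sh3, beside 17.7% and 17.8% of all genes. With sh4, 2 were higher and 2 lower, beside 14.5% and 14.8%. Among them Cdkn1b (p27) was lower with sh3 (-0.64) and sh4 (-0.68) and Cdkn1a higher (0.27 and 0.21). The call of Ccnd2 with sh4 was lost without Tead1_nt replicate 1, Tead1_sh4 replicate 1 or Tead1_sh4 replicate 2 (adjusted p between 0.0554 and 0.0593).

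The D share of the summed CPM per kb differed by about its spread in these cells (83.5% ± 0.68 in Tead1_nt, 82.9% ± 0.81 with sh3 and 82.5% ± 0.96 with sh4, SD, n = 3), and the E share was 5.25% ± 0.05, 6.98% ± 0.15 and 7.09% ± 0.45. Skeletal muscle markers summed to 98.0 to 99.8 CPM in the controls and 64.4 to 83.7 in the knockdown libraries. Only 2 of these 8 markers were tested, and 2 were lower with sh3 and 1 with sh4, so the sum does not stand for the list. Of the 8 fibroblast markers, 5 were higher and 2 lower with sh3, and 3 were higher and 2 lower with sh4. The part of the markers was not tested.

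Atf3, a member of the AP-1 family, was low in all libraries of its experiment, with 3.31, 2.85 and 2.77 CPM in the controls, 1.46, 2.10 and 0.45 with sh5 and 1.51, 1.56 and 2.09 with sh6. The hairpin libraries lay below the controls, but the difference passed for sh5 (edgeR, adjusted p = 0.0441) and not for sh6 (adjusted p = 0.113). The test of Atf3 included sh5 replicate 3, with 8 counts of Atf3, and was not repeated without it. Ccnd1 was lower with both hairpins. It had 221, 237 and 213 CPM in the controls, 149, 152 and 123 with sh5 and 79.4, 77.6 and 71.1 with sh6. The 3 groups did not overlap. The log2 fold changes were -0.66 ± 0.09 for sh5 (adjusted p = 0.000833) and -1.56 ± 0.09 for sh6 (adjusted p = 5.64e-07), and sh6 was below sh5 by 0.89 (adjusted p = 2.56e-05).

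With sh6, Ccna2 fell from 30.7, 31.0 and 29.3 CPM to 13.7, 14.0 and 17.2 (log2 fold change -1.02, edgeR, adjusted p = 0.000657) and Ccnb1 from 31.6, 34.2 and 29.0 to 20.5, 25.2 and 22.7 (-0.47, adjusted p = 0.00377). Ccne1 fell from 25.7, 24.8 and 25.1 to 17.2, 16 and 17.3 CPM (-0.58, adjusted p = 0.00166). Cdk1, at 38.6, 41.2 and 38.2 CPM in the controls and 38.0, 44.7 and 41.8 with sh6, overlapped (adjusted p = 0.527). With sh5, Ccna2 had 33.3, 29.3 and 47.9 CPM and overlapped with the controls (adjusted p = 0.21), and Ccne2 was higher (0.70, adjusted p = 0.0426, lost without any 1 of the 3 controls, sh5 replicate 1 or 3, or sh6 replicate 2), at 5.58, 4.15 and 7.22 CPM against 3.14, 3.84 and 3.42. In the test of the difference between the hairpins, Ccna2 (-1.30), Ccnb1 (-0.71), Ccnb2 (-0.51), Ccnd1 and Ccne1 (-0.31, adjusted p = 0.045) were lower with sh6. The call of Ccnb2 between them was lost without Atf3_sh6 replicate 1 or 2 (adjusted p = 0.082 and 0.11), and that of Ccne1 without any control library, any sh6 library or sh5 replicate 1 (adjusted p between 0.0646 and 0.166).

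In all, 1 member was higher and 1 lower with sh5, beside 17.7% and 17.9% of all genes. With sh6 none was higher and 4 were lower, beside 23.7% and 25.8%, and between sh6 and sh5 none was higher and 5 were lower, beside 25.8% and 26.5%. Without Atf3_sh5 replicate 3, in which Ccnd3 had 22.4 CPM against 75.8 and 75.1 in the other two, Ccnb1 (0.30) and Ccnd2 (0.14) were higher and Ccnd1 (-0.55) and Ccnd3 (-0.38) lower with sh5, and Ccne2 no longer passed (0.52, edgeR, adjusted p = 0.0687). With sh6, Ccne2 was then higher (0.62, adjusted p = 0.0114) and Ccnb2 lower (-0.32, adjusted p = 0.0495) besides Ccna2, Ccnb1, Ccnd1 and Ccne1. Between the hairpins, Ccnd2 (-0.24) joined the 5 lower members and Ccnd3 (0.45) was higher. Of all genes, 21.3% and 20.5% were then higher and lower with sh5, 32.4% and 32.1% with sh6 and 29.7% and 30.3% between them.

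With both Atf3 hairpins the libraries also differed in markers. With sh5, fibroblast markers summed to 21500 to 34200 CPM against 35500 to 37400 in the controls and skeletal muscle markers to 13.9 to 17.2 against 37.3 to 38.5. Singly, 3 of the 8 fibroblast markers were higher and 1 lower with sh5, and of 2 skeletal muscle markers tested 1 was lower. Xist had 407 to 463 CPM with sh5 and 199 to 269 with sh6 against 301 to 327. Reads outside genes made up 11.1%, 10.7% and 15.1% with sh5, the last in replicate 3, against 8.4% to 8.98% in the controls. With sh6, fibroblast markers summed to 13600 to 14600 CPM, and 6 of 8 of these genes were lower. Skeletal muscle markers summed to 196 to 214 CPM against 37.3 to 38.5, with Myh8 at 0 in both groups. Only 2 of these 8 markers were tested, and 1 was higher and 1 lower with sh6, so the sum does not stand for the list. Ddx3y had 120 to 136 CPM against 79.8 to 87.1. Their part in the lower level of Ccnd1 with either hairpin was not tested. Of the CDK inhibitors 5 of 7 were lower with sh6, beside 25.8% of all genes (Cdkn1c, -4.83, Cdkn2b, -1.17, and Cdkn2a, -0.98, among them) and 1 was higher (Cdkn1a, 0.70).

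**Figure D5:**
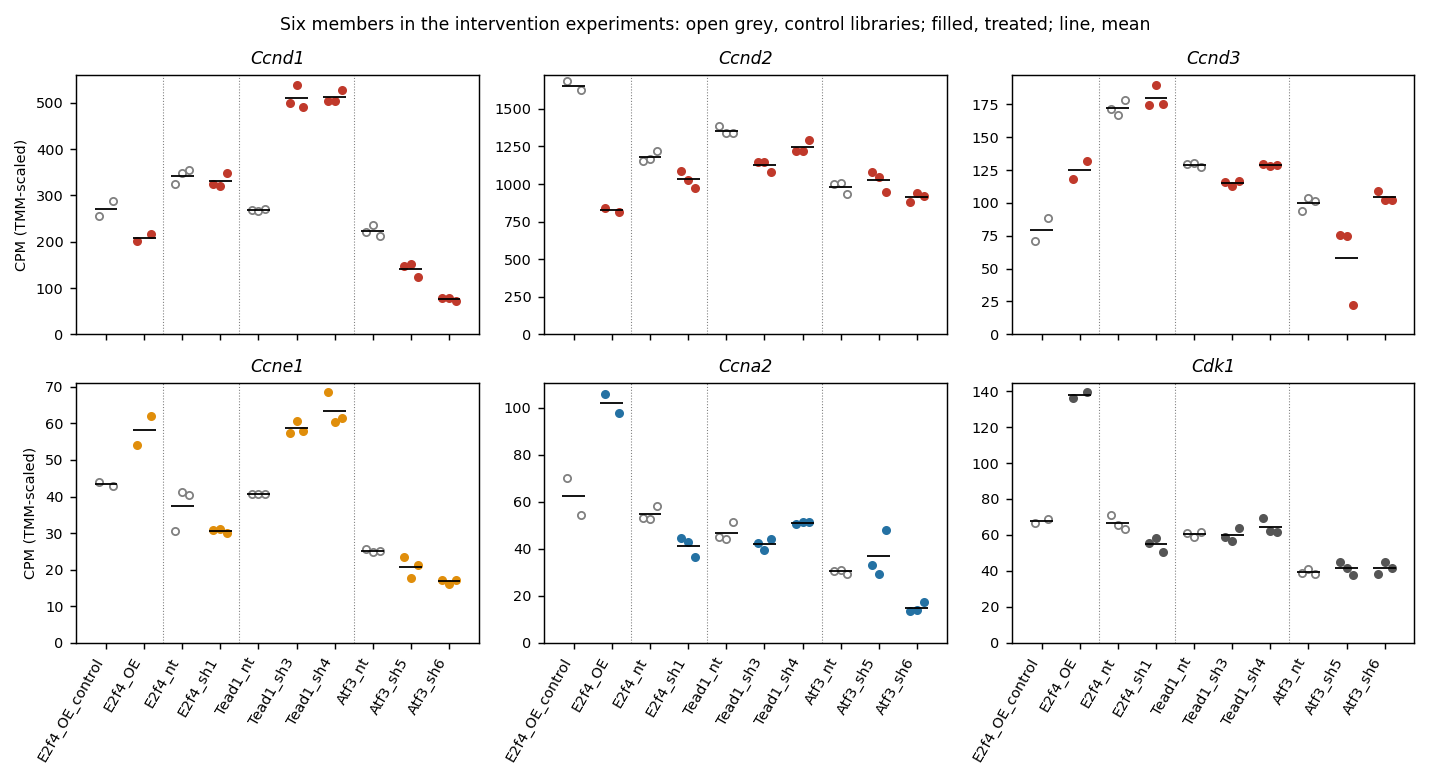
TMM-scaled CPM (y axis, linear from 0) of 6 members in the control libraries (open grey) and treated libraries (filled) of the 4 intervention experiments (x axis, dotted lines between experiments), with a line at each mean. Ccnd1 lies at 492 to 538 CPM with the Tead1 hairpins against 266 to 271 in their controls, and at 71.1 to 79.4 with Atf3_sh6 against 213 to 237.

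Side by side, all 3 D cyclins were higher at P7 than at P1 and at P3, although the call of Ccnd1 against P3 (edgeR, adjusted p = 0.0432) was lost with DESeq2, without a filter on low counts and without any 1 of 8 libraries. In the interventions at most 1 of the 3 was higher in a comparison with a control and the others were lower or did not pass, whereas Ccna2, Ccnb1 and Cdk1 were higher with E2f4 overexpression and lower with its knockdown by 1 hairpin. In the knockdown the call of Cdk1 was lost with DESeq2 and without any 1 control library, and that of Ccna2 without control replicate 3. On the log2 scale, the mean of D cyclins exceeded that of the E, A and B cyclins by 3.29 in E2f4_OE_control and 2.56 in E2f4_OE, by 3.75 in E2f4_nt and 4.04 in E2f4_sh1, by 3.75, 3.86 and 3.78 in Tead1_nt, sh3 and sh4, and by 4.04, 3.30 and 3.88 in Atf3_nt, sh5 and sh6. The change with Atf3_sh5 was -0.74, and -0.40 without its replicate 3. By the median over cyclins in place of the mean, the change was 0.88 with Tead1_sh3 and 0.64 with Tead1_sh4, against 0.11 and 0.03 by the mean. In the Tead1 libraries Ccnd1 lay between Ccnd3 and Ccnd2, so the median over D cyclins there was the level of Ccnd1 alone. Ccnd2 was lower with both hairpins and Ccnd3 with sh3, so the change by the median is not one of the D cyclins as a class.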

How the data were processed

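RNA-seq reads had been trimmed by the authors (Trimmomatic 0.39), mapped to mm10 (HISAT2 2.2.1) and counted per gene, ignoring strand (HTSeq 0.12.4). The deposited RNA-seq values are raw counts of 24984 genes in 44 libraries. Reads assigned to no gene, listed in the intervention files at 5.64% to 15.1%, were left out. For ATAC-seq (13 samples), the authors aligned with Bowtie2 2.3.5.1 and called peaks with MACS2 in each sample. The deposited peak lists give the fold enrichment of each peak (a ratio) and its −log10 p and −log10 q. Read numbers are absent from them, and ATAC-seq depth is thus unknown. The 18 methylation samples were not analysed here.

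Members and lists were chosen with earlier results of these data known. Experiments were fitted separately, each with all its groups, by edgeR 4.0.16 in R 4.3.3 (filterByExpr, TMM, robust quasi-likelihood test, Benjamini-Hochberg adjustment over all genes tested), and an adjusted p under 0.05 passed. CPM are TMM-scaled, and CPM per kb use the RefSeq exonic length. Total counts of 9147324 to 27552949 per library set the precision, and intervals from counts would cover counting error only. Pairs of replicates spread by a chi-square per degree of freedom of 2.75 to 63.7 over 50 pairs. ATAC-seq groups were compared by exact permutation tests. Scripts were tested on simulated data. All members were named, with at most 4 passing genes per list by size of change and 3 genes of the nearest course. Groups and replicate numbers came from the labels. The alternatives were DESeq2 1.42.0, its size factors, other filters, a replicate block, only the 2 groups compared, leaving out each library, and for peaks another threshold, window and measure, and lists of equal length, added after the data were seen.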

Additional observations from a re-analysis of the deposited data

Results flagged for a closer look

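In groups of 4 samples, 1 RNA-seq library and 1 ATAC-seq sample stood apart from the other samples of their group, of 50 groups of values tested, where chance gives about 1 in 20. Ccnd1 had 587 CPM in P5 replicate 4, above the other 3 libraries at 344 to 379 CPM. The promoter peak of Ccne1 was at the 96.9 percentile in P1 replicate 3, above the other 3 samples.

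Other values were picked out because 2 hairpins to 1 gene differed in a direct test (edgeR, adjusted p under 0.05). With Tead1_sh4, Ccna2 was higher than with Tead1_sh3 by 0.28 on the log2 scale, Ccnd2 by 0.15 and Ccnd3 by 0.17, and all 3 libraries of sh4 lay above those of sh3 for each. Ccnd1 differed between these hairpins by 0.01 (adjusted p = 0.949). With Atf3_sh6, the log2 difference from Atf3_sh5 was -1.30 for Ccna2, -0.71 for Ccnb1, -0.51 for Ccnb2, -0.89 for Ccnd1 and -0.31 for Ccne1, with all 3 libraries of sh6 below those of sh5 for each. Without Atf3_sh5 replicate 3 these were -1.08, -0.76, -0.42, -1.0 and -0.31, and all 5 still passed.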

How the results depend on the processing

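Of 76 counts of passing members under another test, scaling, filter, block or set of groups, 74 stayed within 1.5 times the reported count. With only the 2 groups compared in the fit, 4 in place of 2 members passed from P1 to P3 (Ccnb2 and Cdk1 joined), 1 in place of 2 with Atf3_sh5 (Ccne2 was lost), and 1185 in place of 2254 genes passed from P5 to P7; these fits hold fewer libraries. Without a library in turn, the number of passing members lay between 1 and 4 for Atf3_sh5, between 3 and 7 for Atf3_sh6 against Atf3_sh5, and between 1 and 5 for E2f4_sh1 (2, 5 and 4 with all libraries). All 10 members passed from P1 to P7 under each of these, and all genes passing changed from 2238 to 1321 and 1418 for E2f4_sh1 without control replicates 1 and 3, from 1026 to between 608 and 678 between the Tead1 hairpins without Tead1_sh3 replicate 2 or Tead1_sh4 replicate 1 or 3, and from 4758 to 2678 and 2866 for Atf3_sh5 without control replicates 2 and 3. The cause was not tested.

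By the median in place of the mean over cyclins, the log2 difference of D from E, A and B cyclins changed by 3.07 from P1 to P7 (3.42 by the mean), 0.25 from P1 to P3 (0.64), 0.88 with Tead1_sh3 (0.11), 0.64 with Tead1_sh4 (0.03) and -0.34 with Atf3_sh6 (-0.16). In the Tead1 libraries the median over D cyclins was the level of Ccnd1 alone. By fold enrichment, the promoter peak of Ccnb2 at P7 lay below P1 (-2.51 points, against 0.66 by -log10 p). With the 142384 strongest peaks of every sample, chosen after the data were seen, the peak of Ccnd2 no longer lay above P1 without overlap and that of Ccne1 lay below.

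Replicate numbers paired the passage samples only in part by the correlation of their deviations (-0.262 to 0.276, over 0.1 in 11 of 24 pairs). The mean was 0.075 for pairs of the same number and -0.025 for others. Libraries with number 4 correlated at 0.105 to 0.276 in every pair, whereas each other number had a negative value among its pairs. In the E2f4 knockdown every library correlated best with its own number (6 of 6), though only at 0.023 to 0.034. Over the passages 10 of 16 did, 5 of 9 with Tead1 and 2 of 9 with Atf3. In E2f4 overexpression 4 of 4 did (0.142), but with 2 libraries in a group the deviations mirror each other, so these are not separate observations. With the replicate number as a block, 3 members passed from P1 to P3, 9 from P3 to P5 (Ccnd1 joined both, with 0.46, adjusted p = 0.00486, and 0.55, adjusted p = 0.00236), 5 with Tead1_sh3 (Ccna2 joined) and 4 between the Atf3 hairpins (Ccne1 was lost), and the other counts of members were unchanged. Depth limits Ccne2 and Atf3 most. The ATAC-seq lists give no depth.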

Other observations

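Across the passages, the library with number 4 had the highest level of Ccnd1 and of Ccnd2 at all 4 passages, which no other member showed for a single number. The labels do not say what a replicate number marks. In the check over all genes, libraries with number 4 correlated with each other at 0.105 to 0.276, whereas each other number had a negative value among its pairs. For Ccnb2, replicate 1 was highest at 3 of 4 passages, and for Ccne1 replicate 2 was.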
